A study of Mus musculus with 6 samples.

Results

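The 32 genes described here encode enzymes and carriers that take up glucose, break it down to pyruvate and convert pyruvate to and from lactate. Others among them move lactate across cell membranes, convert pyruvate in mitochondria or control that conversion. The 32 genes were selected by gene symbol, with earlier results of these data known, and all 32 were present among the 25755 genes of the table. The samples are whole optic nerves of 12-week-old mice (3 months by the sample labels), from 3 mice with sham surgery (mice 1 to 3, incision without crush) and 3 mice with optic nerve crush (ON-CR, mice 4 to 6), both done at 6 weeks. Every mouse, the sham controls included, was NF1flox/flox;hGFAP-Cre, a genotype in which the human GFAP promoter drives Cre, so that Nf1 is lost from neuroglial progenitors and their progeny. There was no group with intact Nf1 and no uninjured group without surgery, so each difference below is the difference between crush and sham in Nf1-mutant nerves at a single time point. RNA was sequenced in bulk, and every value is a normalized read count per gene.

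Glycolysis splits glucose into pyruvate in the cytosol, beginning with phosphorylation by a hexokinase and ending with pyruvate kinase. Pyruvate that enters mitochondria is converted to acetyl-CoA by the pyruvate dehydrogenase complex, which pyruvate dehydrogenase kinases (PDK) switch off by phosphorylation. Pyruvate left in the cytosol can be reduced to lactate by lactate dehydrogenase. In white matter such as the optic nerve, glial cells are known to release lactate through monocarboxylate carriers, and axons are known to take it up as fuel, a traffic called the lactate shuttle.

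The libraries held 17414091 to 23621006 estimated reads on genes. Oligodendrocyte and astrocyte markers were abundant in every library, as in optic nerve, whereas the summed values of skeletal muscle markers (232 to 535) and photoreceptor markers (24.8 to 59.2) were low. Oligodendrocyte markers were lower after ON-CR for 12 of 12 genes, 8 of them at an adjusted p at or under 0.05 by limma, with sums of 1303850 to 1860550 in sham and 636196 to 755690 in ON-CR. Microglia and macrophage markers summed to 24708 to 33075 in sham and 33792 to 57721 in ON-CR, and 5 of 12 rose. By log2 fold change 10 of the 12 were above 0, whereas P2ry12 (-0.35) and Tmem119 (-0.27) were below it. In bulk RNA, fewer cells of a type and less RNA per cell cannot be told apart. Nf1 itself was at 343 to 447 in sham and 380 to 438 in ON-CR, which checks nothing here, since both groups carry the same alleles and reads outside a deleted part can remain. Several libraries stood apart from their group. Xist, the RNA of the inactive X chromosome, was at 2.14 to 30.9 in the sham libraries and at 2708 to 6357 in the ON-CR libraries, whereas the Y-linked gene Ddx3y was at 1291 to 1645 in the sham libraries and at 976, 4.19 and 0 in ON-CR mice 4, 5 and 6. Sex and surgery therefore cannot be told apart in these libraries, and ON-CR mouse 4 held both transcripts. Airway epithelium markers were high in sham mouse 3 and ON-CR mice 5 and 6 (sums of 5393 to 7892, against 81.8 to 128 in the other 3), and B and plasma cell markers were high in ON-CR mouse 6 (98623, against 393 to 2428 in the others).

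Relative to sham controls, 1 of the 32 genes rose and 1 fell after ON-CR. The gene that rose was Hk2, hexokinase 2, at 2.11-fold, and the gene that fell was Pdk1, pyruvate dehydrogenase kinase 1, at 0.605-fold. These are 6.25% of the members, beside 2.1% of all genes at the same threshold (0.971% higher and 1.13% lower), an adjusted p at or under 0.05 by limma over 25755 genes. At an unadjusted p at or under 0.05, 10 members (31.25%) passed, 4 higher and 6 lower, beside 15.6% of all genes. The 3 sham and 3 ON-CR values did not overlap for 11 members (34.4%), beside 21.6% of all genes. Of these, 4 were higher after ON-CR (Slc2a3, Hk2, Slc16a1 and Slc16a3) and 7 were lower (Aldoc, Ldhb, Bsg, Pdk1, Pdk2, Pdha1 and Pdhb).

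The members as a whole were not displaced in either direction. Fitted log2 fold changes were above 0 for 16 and below 0 for 16, with a median of 0.00072 and quartiles of -0.16 and 0.22, beside a median of 0.028 and quartiles of -0.25 and 0.36 over all genes. For 19 members the 95% interval of the fold change lay within 1.5-fold of no change in both directions, and for 25 within 2-fold. The 10 genes that passed the unadjusted threshold were Slc2a3, Hk2, Slc16a1 and Slc16a3 (higher) and Aldoc, Ldhb, Bsg, Pdk1, Pdk2 and Pdha1 (lower). Without a mean-variance trend in limma, 0 of the 32 genes and 7 of all genes passed after adjustment (Hk2 at 0.183 and Pdk1 at 0.207).

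**Figure D1:**
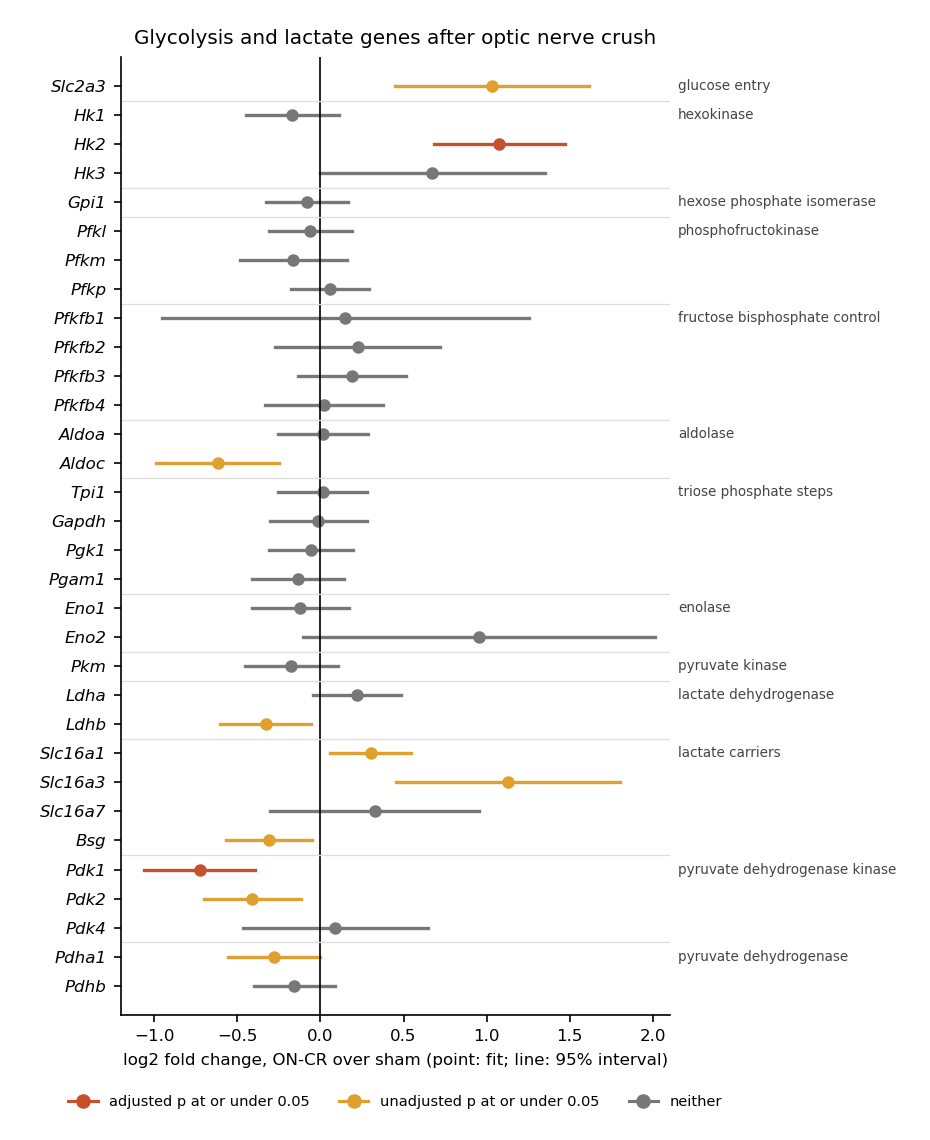
Log2 fold change of ON-CR over sham for each of the 32 genes, in pathway order from glucose entry (top) to pyruvate dehydrogenase (bottom). Points are limma fits, lines are 95% intervals, and colours give the threshold passed: Hk2 (1.08) and Pdk1 (-0.72) pass after adjustment, and the genes from Gpi1 to Pkm lie near 0 except Aldoc (-0.62), Eno2 (0.95) and the wide interval of Pfkfb1.

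Glucose enters cells through carriers of the Slc2a family. Slc2a3 encodes GLUT3, the high-affinity glucose carrier known from neurons. Its normalized counts were 178, 123 and 96.7 in sham mice 1 to 3 and 198, 329 and 280 in ON-CR mice 4 to 6. Each ON-CR value was above each sham value, although ON-CR mouse 4 exceeded sham mouse 1 only slightly. The log2 fold change was 1.03 (SE 0.26, 95% interval 0.45 to 1.61), which missed the threshold after adjustment (adjusted p = 0.0815 by limma). Summed neuron markers ordered the mice as Slc2a3 did within each group, but not across the groups. They were at 7599, 5356 and 4421 in sham mice 1 to 3 and at 3288, 15032 and 6556 in ON-CR mice 4 to 6, and none of the 9 neuron markers passed the threshold (0 at an unadjusted p under 0.05 by limma). ON-CR mouse 4 had the lowest sum of the 6 mice, although its Slc2a3 value was above every sham value. The part of the neuron markers in the Slc2a3 difference was not tested.

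Slc2a1, which encodes GLUT1, the main carrier of the blood-brain barrier and of glia, is not a member and was looked up after other values had been seen. It stood at 3121, 3332 and 3356 in sham and at 2799, 2966 and 3544 in ON-CR, with overlapping groups and a log2 fold change of -0.082 (95% interval -0.34 to 0.18). Among 9 listed carriers of the Slc2a and Slc5a families outside the members, 1 rose and 0 fell, with a median log2 fold change of -0.25. The carrier that rose was Slc2a6, which encodes GLUT6. It was at 61.5, 31.9 and 43.2 in sham and at 161, 122 and 114 in ON-CR, without overlap, a log2 fold change of 1.55 (SE 0.29, adjusted p = 0.0261 by limma). Without sham mouse 2, sham mouse 3, ON-CR mouse 4 or ON-CR mouse 6 it did not pass (adjusted p = 0.123, 0.0906, 0.0804 and 0.138 by limma), nor did it without a trend (0.167 by limma).

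Hexokinases trap glucose in the cell by phosphorylating it. Hk2, the form known for being induced by growth signals and low oxygen, is at chr6:82725025-82774454 on the minus strand of GRCm38. It was at 293, 308 and 322 in sham mice 1 to 3 and at 703, 496 and 784 in ON-CR mice 4 to 6, that is, 308 ± 14.6 against 661 ± 149 (SD, n = 3 each). The sham values lay within a narrow band and every ON-CR value was above it, ON-CR mouse 5 by the least, at 1.61 times the sham mean against 2.29 and 2.55 times in ON-CR mice 4 and 6. The log2 fold change was 1.08 (SE 0.18, 95% interval 0.68 to 1.47, adjusted p = 0.0148 by limma). With 1 mouse left out at a time, the difference ranged from 0.94 to 1.27 on the log2 scale. It no longer passed without any 1 of the sham mice or without ON-CR mouse 6 (adjusted p = 0.0717, 0.0895, 0.0562 and 0.111 by limma).

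The 250 bases upstream of the RefSeq start of Hk2 are shown because Hk2 is the member that rose, and those of Slc16a3, a lactate carrier described below, because its fitted fold was of the same size. Those of Pdk1 are shown because it is the member that fell. Capitals mark the letters ACGTG or GCGTG, read on either strand (CACGT and CACGC on the strand shown), the core letters recognised by hypoxia-inducible factors. Sequences are from RefSeq on GRCm38.p6, written 5′ to 3′ on the strand of the gene: Hk2 at chr6:82774455-82774704 (minus), Slc16a3 at chr11:120948817-120949066 (plus) and Pdk1 at chr2:71872974-71873223 (plus).
Hk2: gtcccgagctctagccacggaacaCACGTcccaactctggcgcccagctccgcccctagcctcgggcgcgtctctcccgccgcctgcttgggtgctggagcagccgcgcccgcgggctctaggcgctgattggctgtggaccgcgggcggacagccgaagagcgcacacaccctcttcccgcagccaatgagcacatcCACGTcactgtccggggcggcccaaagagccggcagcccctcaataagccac
Slc16a3: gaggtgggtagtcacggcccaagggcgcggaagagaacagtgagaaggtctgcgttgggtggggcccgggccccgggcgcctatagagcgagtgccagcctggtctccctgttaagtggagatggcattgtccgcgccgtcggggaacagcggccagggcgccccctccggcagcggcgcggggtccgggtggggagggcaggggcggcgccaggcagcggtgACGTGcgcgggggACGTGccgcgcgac
Pdk1: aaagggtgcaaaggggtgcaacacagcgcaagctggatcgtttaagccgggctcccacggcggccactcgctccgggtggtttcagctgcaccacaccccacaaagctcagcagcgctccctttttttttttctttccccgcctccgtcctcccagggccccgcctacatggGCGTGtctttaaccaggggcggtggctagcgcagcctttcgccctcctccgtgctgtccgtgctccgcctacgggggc
ACGTG stood in the Hk2 window with its first base 226 and 52 bases before the start, and in the Slc16a3 window 27 and 14 bases before it. The RefSeq start of Slc16a3 lies 587 bases from the annotated gene start, against 0 for Hk2 and Pdk1. The whole Slc16a3 window therefore lies within the annotated gene. The last 14 bases of the Slc16a3 window, which hold the ACGTG nearest the start, lie in an annotated exon of another Slc16a3 transcript. The Pdk1 window held no ACGTG and a single GCGTG, 78 bases before the start. Windows of the same length held ACGTG in 16.6% of 32851 RefSeq promoters and in 37.5% of the 48 promoters of the 29 members that were matched. GCGTG was in 28.2% of all promoters and in 50% of the members' promoters. Either was in 38.6% of all promoters and in 75% of the members' promoters. By gene, 14 of the 29 matched members had ACGTG and 26 had either, whereas 1 member rose and 1 fell at the adjusted threshold. A link between these letters and the direction of a member was not tested. No entry was found for Slc2a3, Bsg and Slc16a7. CACGTG holds ACGTG on both strands and counts as one promoter with it. The windows differ in base composition (69.6% G or C for Hk2, 73.6% for Slc16a3 and 64% for Pdk1), which was not matched. These are letters in a window and say nothing on whether a factor was bound.

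Hk1, the form present in most cells, was the hexokinase with the highest level per exon length. It stood at 3366, 3085 and 2865 in sham and at 2641, 3211 and 2471 in ON-CR, with overlapping groups and a log2 fold change of -0.17 (95% interval -0.45 to 0.11). Hk3, a form known from blood and immune cells, was at 117, 90.3 and 87.5 in sham and at 175, 95.4 and 225 in ON-CR (chosen after its values were seen). ON-CR mice 4 and 6 were above all sham mice, and ON-CR mouse 5 was inside the sham range. Its log2 fold change was 0.67 (95% interval -0.0041 to 1.35, adjusted p = 0.324 by limma), and 1.02 without ON-CR mouse 5 (adjusted p = 0.0428 by limma). Hk3 passed in that 1 of 15 alternative settings only, and its adjusted p reached up to 0.643 (without ON-CR mouse 6, by limma).

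Within the hexokinases, the division between forms differed more than the total. The sum per kilobase of exon was 724 ± 53.7 in sham and 739 ± 34.5 in ON-CR (SD, n = 3). Hk2 made up 6.68%, 7.64% and 8.51% of that sum in sham mice 1 to 3 and 17.4%, 11.3% and 19.5% in ON-CR mice 4 to 6. All ON-CR shares were above all sham shares, with ON-CR mouse 5 the closest to sham. The ratio of Hk2 to Hk1, which does not depend on library scaling, was 2.37-fold higher in ON-CR (two-sided exact permutation p = 0.1, the smallest that 3 against 3 mice allow, adjusted to 0.3 over 12 ratios).

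The microglia and macrophage marker sums ordered the ON-CR mice as Hk2 and Hk3 did, with mouse 6 the highest and mouse 5 the lowest. They were 33075, 27580 and 24708 in sham mice 1 to 3 and 48161, 33792 and 57721 in ON-CR mice 4 to 6. Within sham the order was reversed for Hk2, which was lowest in sham mouse 1, where these markers were highest. The part of these cells in the hexokinase values was not tested.

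**Figure D2:**
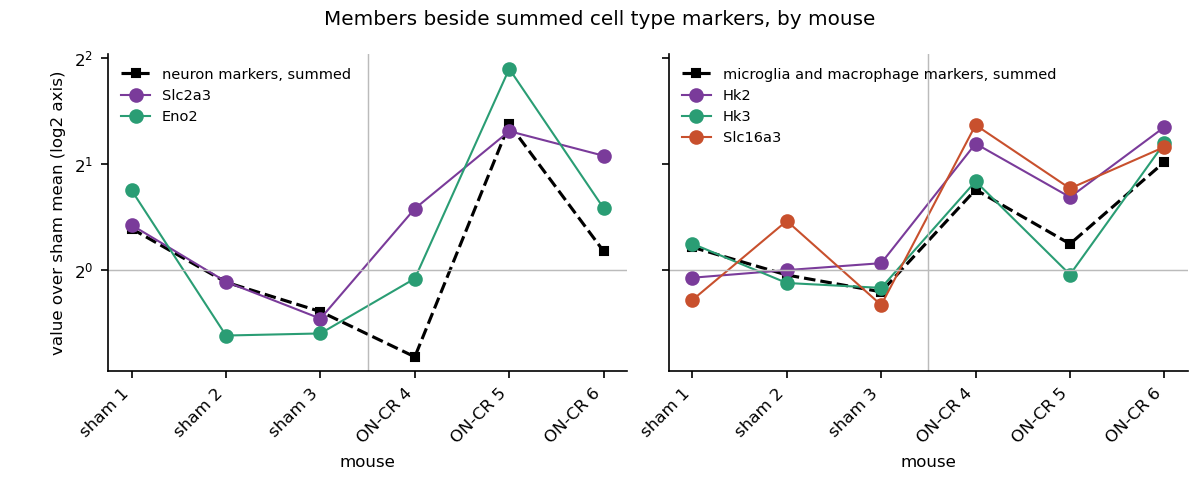
Value in each mouse divided by the sham mean, on a log2 axis, for neuron markers beside Slc2a3 and Eno2 (left) and for microglia and macrophage markers beside Hk2, Hk3 and Slc16a3 (right). Dashed lines with squares are summed markers and solid lines with circles are single genes. ON-CR mouse 5 is the highest for neuron markers, Slc2a3 and Eno2 and the lowest ON-CR mouse for microglia and macrophage markers, Hk2, Hk3 and Slc16a3.

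Phosphofructokinase commits sugar to glycolysis, and the bifunctional PFKFB enzymes set its activity by making and breaking fructose 2,6-bisphosphate. None of these 7 genes passed the unadjusted threshold by limma, and their groups overlapped. Pfkm, the phosphofructokinase form with the highest level per exon length, was at 4554, 4206 and 3268 in sham and at 3396, 4026 and 3266 in ON-CR, a log2 fold change of -0.16 (95% interval -0.48 to 0.16). Those of Pfkl and Pfkp were -0.062 and 0.059. Pfkfb3, the PFKFB form known for its strong kinase activity and the highest of its family here per exon length, was at 546, 655 and 554 in sham and at 747, 568 and 698 in ON-CR. Its groups overlapped, and its log2 fold change was 0.19 (95% interval -0.13 to 0.52). Pfkfb2 (0.23) and Pfkfb4 (0.020) had intervals across 0. Pfkfb1, with as few as 9 estimated reads in a library, allowed no firm statement, with a log2 fold change of 0.15 and a 95% interval of -0.95 to 1.25.

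Aldolase cleaves the doubly phosphorylated sugar into a pair of trioses. Aldoc, the brain form known as a marker of astrocytes, had the highest level per exon length of all 32 genes in sham (15096 per kilobase). Its normalized counts were 49840, 49049 and 35889 in sham mice 1 to 3 and 28298, 33871 and 25273 in ON-CR mice 4 to 6. All ON-CR values were below all sham values, but sham mouse 3 and ON-CR mouse 5 were close. The log2 fold change was -0.62 (SE 0.17, 95% interval -0.99 to -0.25), which missed the threshold after adjustment (adjusted p = 0.0950 by limma). It passed in 2 of 15 alternative settings, with sample quality weights (0.0475 by limma) and without ON-CR mouse 5 (0.0479 by limma). In the others its adjusted p reached up to 0.371 (without sham mouse 2, by limma). Astrocyte markers were divided. Their sum was 196896 to 235775 in sham and 268947 to 302013 in ON-CR, but Gfap carried that difference (99186 to 123408 against 156465 to 202957), and without Gfap the sums overlapped, with means of 107847 and 103041. Of the 10 markers, 4 were below 0 as Aldoc was (S100b at -0.75, Gjb6 at -0.42, Gja1 at -0.30 and Slc1a2 at -0.19). The other 6 were above 0 (Gfap at 0.64, Aqp4 at 0.43, Slc1a3 at 0.31, Sox9 at 0.29, Aldh1l1 at 0.14 and Fgfr3 at 0.0044). At the adjusted threshold S100b fell and 0 rose, and at an unadjusted p under 0.05 by limma 5 passed, 3 of them higher. The median log2 fold change was 0.070. The part of astrocyte content in the Aldoc values was not tested.

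Aldoa, the form present in most tissues, was at 25523 to 30883 in sham and 26805 to 29967 in ON-CR, with a log2 fold change of 0.015 (95% interval -0.26 to 0.29). Aldoc made up 58.2%, 60.9% and 54.8% of the aldolase pool per exon length in sham and 47.6%, 51.5% and 42.1% in ON-CR, so that all ON-CR shares were lower. The summed aldolase level was 25960 ± 3525 per kilobase in sham and 20746 ± 1181 in ON-CR (SD, n = 3). The ratio of Aldoa to Aldoc was 1.55-fold higher in ON-CR (exact permutation p = 0.1, adjusted 0.3).

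The steps from the triose phosphates to pyruvate were close to level between the groups. With Gpi1 and Aldoa, the genes Tpi1, Gapdh, Pgk1, Pgam1, Eno1 and Pkm make 8 widely expressed genes of the pathway's trunk. Aldoc, which was the larger part of the aldolase pool in sham and stood at -0.62, and Eno2 are not among the 8. Their log2 fold changes lay between -0.17 and 0.015, and none passed (lowest adjusted p = 0.552 by limma, lowest unadjusted p = 0.192). All 8 intervals lay between 0.731-fold and 1.22-fold, so that differences beyond this range are outside the intervals. The signs of these small differences depended on scaling, and those of Gpi1, Gapdh, Pgk1 and Eno1 were above 0 when libraries were scaled to equal totals.

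Gapdh, the triose dehydrogenase that the study used as the internal control of its qPCR, was at 17206, 14896 and 12570 in sham and at 14054, 15271 and 14614 in ON-CR. Its ON-CR values lay inside the sham range, with a log2 fold change of -0.013 (95% interval -0.31 to 0.28). Eno1, the main enolase, was at 32775, 32091 and 25550 in sham and at 28115, 26863 and 27732 in ON-CR, also inside the sham range, with a log2 fold change of -0.12 (95% interval -0.41 to 0.17). In sham mouse 3 all 8 trunk genes were the lowest of the sham mice, and in sham mouse 1 it was 7 of 8 that were the highest. Among 3122 genes with a mean value of at least 1000, sham mouse 3 was the lowest sham mouse for 57.1% and sham mouse 1 the highest for 48.0%.

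Eno2, the enolase of neurons, varied widely between mice (chosen after its values were seen). Its normalized counts were 1237, 479 and 486 in sham and 695, 2736 and 1101 in ON-CR. ON-CR mouse 5 was far above the other mice and sham mouse 1 was above ON-CR mice 4 and 6, so the groups overlapped. A log2 fold change of 0.95 was fitted, with a 95% interval of -0.10 to 2.01 (adjusted p = 0.369 by limma). The neuron marker sum was also highest in ON-CR mouse 5, at 15032, and second in sham mouse 1, at 7599. Its part in the Eno2 values was not tested.

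Lactate dehydrogenase is built from A subunits, known to favour lactate formation, and B subunits, known to favour lactate use. Ldhb, the more abundant, was at 18344, 16118 and 14285 in sham and at 12088, 13512 and 13029 in ON-CR. All ON-CR values were below all sham values, and sham mouse 3 was the closest to them. Its log2 fold change was -0.33 (SE 0.12, 95% interval -0.60 to -0.056, unadjusted p = 0.0230, adjusted p = 0.227 by limma).

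Ldha was at 5730, 5131 and 4941 in sham and at 6314, 5402 and 6706 in ON-CR (given beside Ldhb after its values were seen). ON-CR mouse 5 lay inside the sham range, and the log2 fold change was 0.22 (95% interval -0.046 to 0.48, adjusted p = 0.415 by limma). Ldha made up 17.7%, 18.0% and 19.2% of the lactate dehydrogenase pool per exon length in sham mice 1 to 3 and 26.4%, 21.6% and 26.2% in ON-CR mice 4 to 6, without overlap, and B subunit transcripts remained the larger part in every mouse. The ratio of Ldha to Ldhb was 1.46-fold higher in ON-CR (exact permutation p = 0.1, adjusted 0.3). The summed level was 15240 ± 1771 per kilobase in sham and 13115 ± 472 in ON-CR (SD, n = 3).

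**Figure D3:**
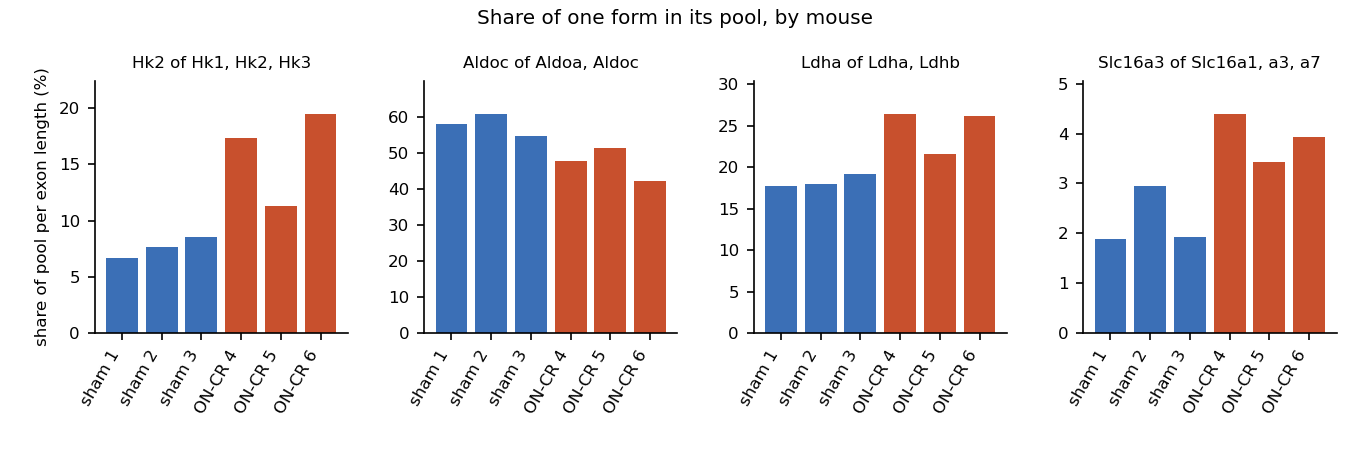
Share, in percent and per kilobase of exon, that 1 form holds of its enzyme or carrier pool in each mouse (blue, sham; red, ON-CR). The shares of Hk2 (6.68% to 8.51% against 11.3% to 19.5%), Ldha and Slc16a3 are higher and that of Aldoc is lower in every ON-CR mouse than in every sham mouse.

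Lactate crosses membranes through monocarboxylate carriers. Slc16a1 encodes MCT1, known for lactate export from oligodendrocytes and transport across the endothelium, and held 93.4% to 96.4% of the 3-carrier pool per exon length. It was at 1807, 1932 and 1726 in sham and at 2387, 2055 and 2302 in ON-CR. All ON-CR values were above all sham values, with ON-CR mouse 5 the closest to sham. It differed by a log2 fold change of 0.30 (SE 0.11, 95% interval 0.057 to 0.55, unadjusted p = 0.0206, adjusted p = 0.215 by limma). The sum of oligodendrocyte markers was lower in every ON-CR mouse than in every sham mouse. Summed endothelial markers overlapped, at 4421 to 5315 in sham and 4134 to 4877 in ON-CR. The part of these cells in the Slc16a1 values was not tested.

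Slc16a3 encodes MCT4, the low-affinity carrier known for lactate export from glycolytic cells, and lies at chr11:120948480-120960868 on the plus strand of GRCm38. It was at 35.9, 60.2 and 34.7 in sham mice 1 to 3 and at 113, 74.4 and 97.6 in ON-CR mice 4 to 6. The groups did not overlap, and sham mouse 2 and ON-CR mouse 5 were the closest. Its log2 fold change of 1.13 was the highest of the 32 genes, with a wide error at this low level (SE 0.30, 95% interval 0.46 to 1.80, adjusted p = 0.0950 by limma). Its share of the carrier pool was 1.89%, 2.94% and 1.93% in sham and 4.39%, 3.42% and 3.94% in ON-CR. Relative to Slc16a1 it was 1.77-fold higher (exact permutation p = 0.1, adjusted 0.3). As for Hk2 and Hk3, ON-CR mouse 5 was the lowest ON-CR mouse.

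Slc16a7, which encodes MCT2, the high-affinity carrier known for lactate uptake by neurons, was at 76.1 to 125 in sham and 91.0 to 172 in ON-CR, a log2 fold change of 0.33 with a 95% interval of -0.30 to 0.96. Bsg encodes basigin, the partner protein that brings MCT1 and MCT4 to the cell surface. It was at 13353, 14030 and 12158 in sham and at 11800, 9878 and 10255 in ON-CR. The ON-CR values were all lower, with ON-CR mouse 4 only slightly below sham mouse 3. This was a log2 fold change of -0.31 (SE 0.12, 95% interval -0.57 to -0.051, unadjusted p = 0.0236, adjusted p = 0.230 by limma). The carrier transcripts Slc16a1 and Slc16a3 and their partner thus stood on opposite sides of 0.

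**Figure D4:**
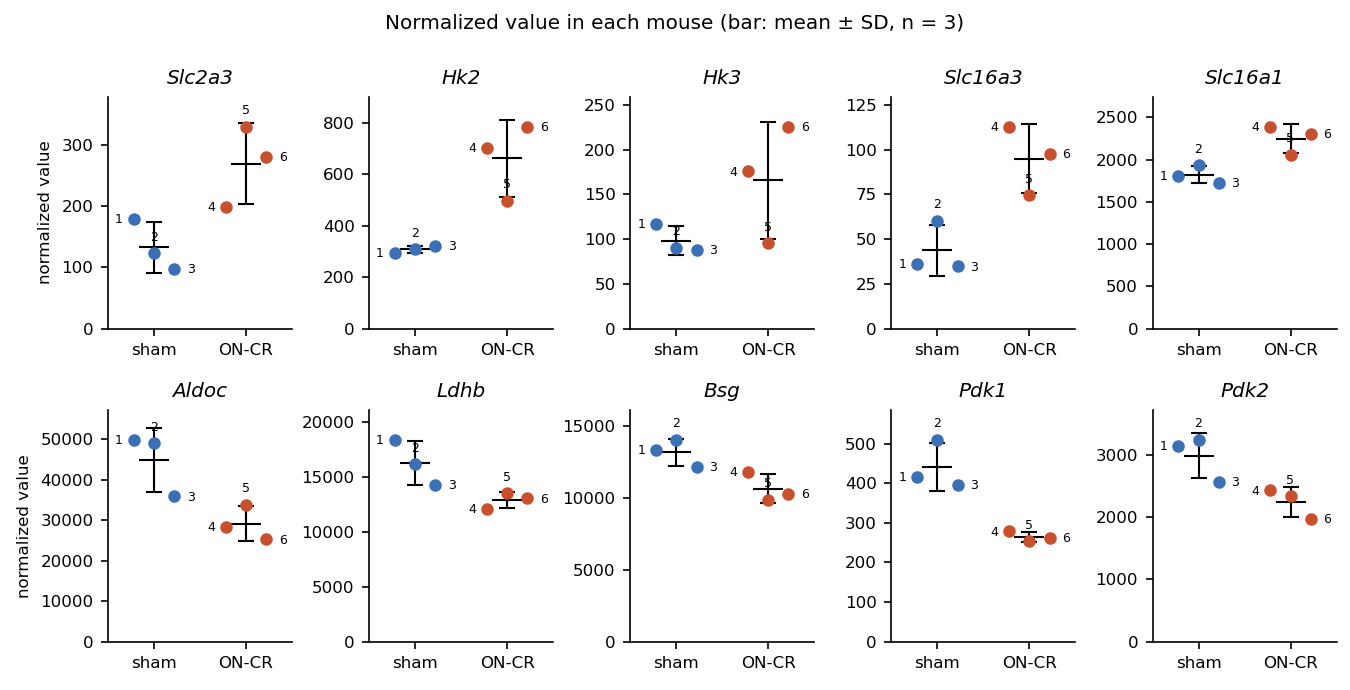
Normalized value in each mouse for 10 genes (vertical axes start at 0). Points are mice with their numbers, and bars are the mean ± SD (n = 3). Sham and ON-CR points overlap for Hk3 alone, where ON-CR mouse 5 (95.4) lies among the sham mice.

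PDK enzymes switch off pyruvate dehydrogenase in mitochondria, and 3 of their genes are members. Pdk1, the form known as a target of hypoxia-inducible factors, lies at chr2:71873224-71903858 on the plus strand of GRCm38. It was at 415, 509 and 396 in sham mice 1 to 3 and at 278, 254 and 262 in ON-CR mice 4 to 6, that is, 440 ± 60.5 against 265 ± 12.5 (SD, n = 3 each). The 3 ON-CR values lay close together and well below the lowest sham value. The log2 fold change was -0.72 (SE 0.15, 95% interval -1.06 to -0.39, adjusted p = 0.0395 by limma). Leaving out any 1 of the 6 mice ended the call, with log2 fold changes of -0.80 to -0.62 and adjusted p values by limma of 0.0516 (without ON-CR mouse 5) to 0.209 (without sham mouse 2). It was also lost when libraries were scaled to equal totals (0.0661 by limma) or to Gapdh (0.155 by limma).

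Pdk2, the form with the highest level per exon length (85.5% to 91.2% of the 3), was at 3139, 3234 and 2567 in sham and at 2427, 2331 and 1964 in ON-CR. The groups did not overlap, though sham mouse 3 and ON-CR mouse 4 were near each other. Its log2 fold change was -0.41 (SE 0.13, 95% interval -0.70 to -0.12, unadjusted p = 0.0105, adjusted p = 0.158 by limma). Pdk4, a form known to respond to fasting and fatty acids, was at 189 to 386 in sham and 306 to 342 in ON-CR, with a log2 fold change of 0.090 (95% interval -0.47 to 0.65).

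The pyruvate dehydrogenase complex itself is represented by its E1 subunits. Pdha1, the alpha subunit, was at 3138, 2557 and 2498 in sham and at 2056, 2385 and 2283 in ON-CR, without overlap. Its log2 fold change was -0.28 (95% interval -0.55 to -0.0054, unadjusted p = 0.0464, adjusted p = 0.311 by limma). Pdhb, the beta subunit, was at 1453 to 1687 in sham and 1336 to 1403 in ON-CR, also without overlap, with a log2 fold change of -0.16 (95% interval -0.40 to 0.089). Pdha1 is on the X chromosome, as are Pgk1 and Pfkfb1, and for all members sex and surgery cannot be told apart here.

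**Figure D5:**
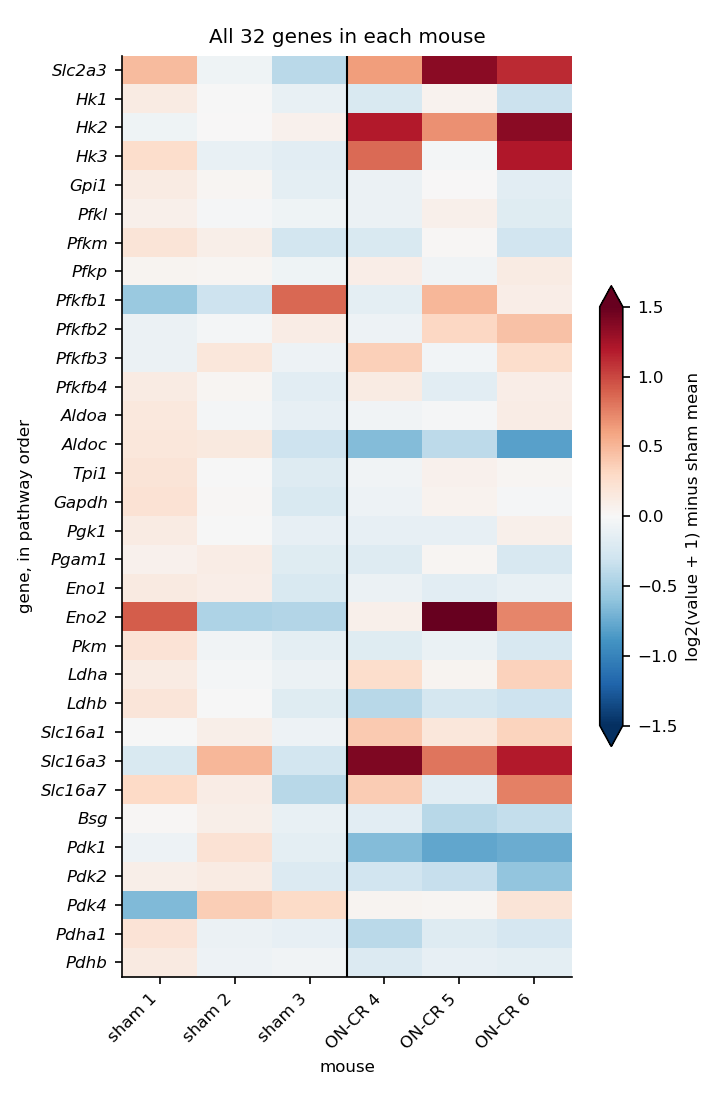
Log2(value + 1) of each gene in each mouse minus the mean of the 3 sham mice, in pathway order (red, higher; blue, lower; colours end at -1.5 and 1.5). The vertical line separates sham from ON-CR mice. Slc2a3, Hk2 and Slc16a3 are red and Aldoc, Pdk1 and Pdk2 blue in all 3 ON-CR mice, and Eno2 is high in sham mouse 1 and ON-CR mouse 5.

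Over 9 lists of neighbouring pathways, 3 of 126 genes (2.38%) passed the threshold, close to the 2.1% of all genes. At an unadjusted p under 0.05 there were 40 (31.7%), beside 15.6% of all genes. Among 17 other glycolytic and gluconeogenic enzymes, 0 rose and 1 fell, with a median log2 fold change of 0.0020 and 6 at an unadjusted p under 0.05. The gene that fell was Bpgm, which makes 2,3-bisphosphoglycerate and is known from red blood cells. It was at 5119, 4269 and 3666 in sham and at 2416, 2600 and 2715 in ON-CR, without overlap, a log2 fold change of -0.74 (SE 0.13, adjusted p = 0.0221 by limma). The call was lost when sham mouse 1, sham mouse 2, ON-CR mouse 4 or ON-CR mouse 6 was left out (adjusted p = 0.0744, 0.122, 0.0607 and 0.124 by limma), and in the fit without a trend (0.225 by limma). Erythroid markers, which summed to 509290, 305733 and 269397 in sham and 136974, 378023 and 245640 in ON-CR, did overlap between the groups, and their part in Bpgm was not tested.

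Of 12 other monocarboxylate carriers and the lactate receptor, 0 rose and 1 fell, with a median of -0.090. Hcar1, the receptor by which cells sense extracellular lactate, was at 832, 886 and 943 in sham and at 648, 587 and 571 in ON-CR. Its log2 fold change was -0.56 (SE 0.12, adjusted p = 0.0459 by limma), the groups did not overlap, and it passed in 4 of 15 alternative settings. It missed the threshold with scaling to equal totals (0.122), to Gapdh (0.275) or to the upper quartile (0.0552), without a trend (0.240), with a pseudocount of 0.1 (0.0520), all by limma, and with any 1 mouse left out (adjusted p of 0.0609 without ON-CR mouse 5 to 0.204 without sham mouse 2 by limma).

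The remaining lists held no gene past the threshold in the limma fit, and their genes with the smallest p are named. In the pentose phosphate pathway, which draws on glucose 6-phosphate, 3 of 8 genes had an unadjusted p under 0.05, all lower. The median was -0.27, and the smallest p was that of Pgls (log2 fold change -1.66, adjusted p = 0.105 by limma), at 1074, 1149 and 1057 in sham and 795, 355 and 145 in ON-CR. In the tricarboxylic acid cycle, 4 of 17 had an unadjusted p under 0.05, all lower, with a median of -0.10. Sucla2, a subunit of succinyl-CoA ligase, had the smallest p (-0.31, adjusted p = 0.181 by limma). A list of 9 genes covered pyruvate entry into mitochondria and its conversion there. In it, 4 genes had an unadjusted p under 0.05 by limma, 1 of them higher, with a median of -0.15. The smallest p was that of Pdk3, the fourth PDK gene, at 431, 599 and 484 in sham and 382, 289 and 256 in ON-CR (log2 fold change -0.71, adjusted p = 0.0895 by limma). Of the 4 PDK genes, Pdk1, Pdk2 and Pdk3 were thus without overlap between groups and lower after ON-CR, and Pdk4 overlapped.

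Among 19 genes of glycogen metabolism, 4 had an unadjusted p under 0.05, 1 of them higher, with a median of -0.10. Pygm, a glycogen phosphorylase, had the smallest p (-0.49, adjusted p = 0.126 by limma). Hypoxia-response genes outside glycolysis were divided, with 3 of 20 higher and 3 lower at an unadjusted p under 0.05 and a median of -0.15. Bhlhe40, a transcription repressor, had the smallest p in that list (0.58, adjusted p = 0.0633 by limma). Among 15 regulators of glycolysis, 4 were higher and 2 lower at this level, with a median of 0.10, and Max, the partner of Myc, had the smallest p (0.66, adjusted p = 0.0717 by limma).

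Of the 12 ratios between forms that were compared, 4 did not overlap between groups. They were Hk2 to Hk1, Aldoa to Aldoc, Ldha to Ldhb and Slc16a3 to Slc16a1. None of the 4 passed (exact permutation p = 0.1, adjusted 0.3 for each). Among all genes, 21.6% did not overlap, and the share among ratios of other genes was not tested. Each of the 4 ratios holds a gene that did not overlap by itself (Hk2, Aldoc, Ldhb, Slc16a1 or Slc16a3). The 4 ratios are therefore no further evidence of a shift between forms beyond those genes. The library kit does not mark strand, and the exons of 11 members overlap a gene on the opposite strand, so their reads cannot be fully told apart. Hk2, Pdk1, Slc2a3, Slc16a3 and Aldoc are not among them. For 8 members with annotated copies or pseudogenes, the copies held at most 9.42% of the summed value (Ldhb), and adding them left every direction as it was.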

How the data were processed

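RNA from optic nerves of perfused mice was made into libraries from 10 ng of total RNA with the SMARTer Ultra Low kit. The authors aligned the reads with DRAGEN to the Ensembl release 101 assembly, assigned them to mm10 gene models of release 102 in Partek Flow 10.0 and applied median normalization, and the study used DESeq2. The deposited values are this normalized signal, with 1 read worth 0.885 to 1.06, and 66.9% to 69.4% of values per library were whole reads within 0.02, so no count model was run.

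All 25755 genes entered 1 fit of limma 3.58.1 (R 4.3.3), 3 sham against 3 ON-CR mice, on the scale log2(value + 1). The prior variance followed a trend on the mean, and p values were adjusted by Benjamini and Hochberg (threshold 0.05). Fold changes are on that scale, which understates low genes. SD is between mice, and the members were at 9 or more estimated reads in each library. Ratios were tested by two-sided exact permutation. Levels between genes were compared per kilobase of merged exons of GENCODE M21, from which positions (GRCm38) come.

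The members and lists were chosen with earlier results of these data known. Named with values in every mouse were members past the adjusted or the unadjusted threshold, the highest form at each step and Gapdh, and, from the pathway lists, genes past the threshold or, failing that, the gene with the smallest p. Alternatives were other pseudocounts, a filter at a mean of 10, other scalings, robust, trendless and quality-weighted fits, and leaving out each mouse. The code was tested on simulated data. With 3 against 3 simulated libraries, it recovered 12.5% of 200 genes changed 1.5-fold and 71% of 200 changed 2-fold. A gene that did not pass can therefore still differ. The changed genes were not drawn from genes of low mean value, so these rates do not cover Pfkfb1. Noise was drawn separately for each gene and library, without shifts shared between genes. Replicate libraries differed by more than sampling noise.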

Additional observations from a re-analysis of the deposited data

How the results depend on the processing

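No paired analysis was possible because the mice carry numbers 1 to 3 in sham and 4 to 6 in ON-CR, so the groups share none. Among the members, 1 was called higher and 1 lower. Pseudocounts of 2 and 0.1, the filter at a mean of 10, the robust fit and upper-quartile scaling gave the same calls, Hk2 and Pdk1. Scaling to equal totals called 2 higher (Slc2a3 and Hk2) and 0 lower, scaling to Gapdh (chosen after seeing the data) called 0 lower and 296 genes in all against 540, sample quality weights called 2 lower (Aldoc and Pdk1), and the fit without a trend called 0 higher, 0 lower and 7 genes in all. After 1 mouse was left out, 11 to 20 members were without overlap (main 11, with 20 when ON-CR mouse 5 and 17 when sham mouse 3 was left out). Groups of fewer mice fail to overlap more readily for any gene. The share over all genes was not counted in these fits, so these counts are not a result about the members. Leaving out a mouse gave 0 to 2 members higher, 0 to 1 lower and 67 to 854 genes called in all (fewest without ON-CR mouse 6, most without ON-CR mouse 5). The cause was not tested, except that fewer mice enter the fits that leave one out.

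Of 287 member values under 9 settings that keep all mice, 275 kept their direction and their side of the threshold. Reversed signs were near 0. With upper-quartile scaling, Gapdh was at 0.017. With equal totals, which moved the median of all genes from 0.028 to 0.15, Gpi1 was at 0.048, Pfkl at 0.067, Gapdh at 0.12, Pgk1 at 0.072 and Eno1 at 0.0085. With a mouse left out, signs turned within ranges of -0.13 to 0.58 for Pfkfb1, -0.057 to 0.11 for Pfkfb4, -0.046 to 0.091 for Aldoa, -0.081 to 0.11 for Tpi1, -0.13 to 0.097 for Gapdh, -0.12 to 0.0074 for Pgk1 and -0.24 to 0.27 for Pdk4. Depth limits Pfkfb1 most, at as few as 9 estimated reads, and a floor of 3 reads covers counting error only.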
